A study of Mus musculus with 5 samples.

Results

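The 10 genes described here encode the MHC class II antigen presentation pathway of the mouse: the peptide editors H2-DMa, H2-DMb1 and H2-DMb2, their inhibitor chains H2-Oa and H2-Ob, the classical chains H2-Aa, H2-Ab1 and H2-Eb1, the invariant chain gene Cd74 and the transactivator gene Ciita. They are 10 of 21521 protein-coding genes, and what is described is where binding sites of the transcription factor EBF1 lay at them. The sites are those deposited with 1 ChIP-seq library of pro-B cells, progenitors already committed to the B lineage. For that library, fetal liver cells of genotype Ebf1-/- had been transduced with wild-type EBF1 and their chromatin precipitated with an antibody against EBF1. A site counted for a gene when its centre lay inside the gene's RefSeq span. A site in no coding gene counted for the nearest coding gene within 100 kb. The genes were chosen by their role and with the positions and classes of their sites in this list already known, so the site counts describe them and support nothing by themselves. The other 4 libraries of the series (EBF1 ChIP with the EBF1 form YmA, BRG1 ChIP with YmA, and the inputs of both ChIPs) were not analysed here.

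The list gives 7494 sites, each 300 bp wide, with a class for each: CTD-ind (34.0%), YmA-ind (54.1%) or YmA-dep (11.9%). It holds no height, fold or p-value, so depth and binding strength are unknown, and lack of a site does not show lack of binding. The list was deposited with 1 library, with no replicate, so no spread between cultures can be given and nothing below carries a p-value. Whether other libraries entered the calling and how sites were sorted into classes is not stated in the labels or the file, and the class names serve as labels only. The list holds no expression values, so the cell type could not be checked against its markers.

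MHC class II molecules are pairs of an alpha and a beta chain that show peptides to CD4 T cells. The new pair is held by the invariant chain, the product of Cd74, whose remnant in the peptide groove is later exchanged for an antigenic peptide with the help of H2-DM, while H2-O restrains H2-DM in B cells. The genes share promoter elements called X and Y boxes, bound by the RFX and NF-Y complexes, and CIITA, which does not itself bind DNA, is recruited there. In mice, class II expression in the B lineage increases as the cells mature. EBF1 is a factor of early B-cell development that binds a palindrome, searched here as the core CCCNNGGG and, in a strict form, as that core between a T before it and an A after it.

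EBF1 sites lay at 2 of the 3 peptide editing genes, at 1 inhibitor chain gene, at the invariant chain gene and at the transactivator gene, and none was assigned to the classical chains. Of the 10 genes, 5 had at least 1 assigned site: H2-DMa and H2-DMb2 had 2 each, and H2-Oa, Cd74 and Ciita had 1 each. Over all coding genes, 19.6% had an assigned site and 6.78% had 2 or more. H2-DMb1, H2-Ob, H2-Aa, H2-Ab1 and H2-Eb1 had none. Of the 7 sites, 6 were CTD-ind (85.7%) and 1, at H2-Oa, was YmA-ind, while 0 were YmA-dep. The CTD-ind share depended on how sites were counted: it was 70% of 10 sites inside or within 10 kb of any of the genes, and 44.4% of 18 sites inside or within 100 kb, against 34.0% of all sites. As assigned, CTD-ind sites stood at 4 of the 10 genes, where 9.32% of all coding genes had a CTD-ind site, and YmA-ind sites at 1 of the 10, where the share of all coding genes was 12.2%. No YmA-dep site was assigned to the 10 genes, against 3.26% of all coding genes with such a site.

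The H2-DM genes lie next to each other on chromosome 17. H2-DMa, which encodes the alpha chain of the peptide editor, spans 34119693 to 34139101 on the plus strand (GRCm38). A CTD-ind site at chr17:34122716-34123015 covered the transcript start listed at 34122832, reaching from -116 to 183 bases around it. A further CTD-ind site at chr17:34135281-34135580 was centred inside the gene, 3.67 kb from its upper end and 9.91 kb past the nearest listed start. Only listed starts were examined, so whether transcripts also start near this site is not known here. Both sites lay within the gene, and the first was centred 3.17 kb inside the lower end of its span. A second listed start of H2-DMa, at 34125518, lay 2.65 kb from the nearest site centre.

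The part of the start site that lies upstream of the listed H2-DMa start is shown because this CTD-ind site covers a GC-rich stretch without either form of the EBF palindrome. It covers chr17:34122716-34122831 on the plus strand (GRCm38.p6) and is 75% G or C.
H2-DMa: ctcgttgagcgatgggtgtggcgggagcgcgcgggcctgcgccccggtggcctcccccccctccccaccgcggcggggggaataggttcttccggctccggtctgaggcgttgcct
No CCCNNGGG was found on either strand in the whole 300-base window around this start (250 bases before it, 50 after), whose G or C share was 73%. The absence says only that these letters are not in the window. Bases of the site beyond the window were not searched.

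A neighbouring CTD-ind site at chr17:34121552-34121851 had its centre inside both H2-DMa and Brd2, the gene of a bromodomain protein that reads acetylated histones. Brd2 lies on the minus strand (34112019 to 34122814) and overlaps the lower end of the H2-DMa span. Its upper end, the 5' end on that strand, lay inside the site at the listed H2-DMa start, chr17:34122716-34123015. Position alone cannot tell whether that site belongs to H2-DMa, to Brd2 or to both. As the shorter gene Brd2 received the site at chr17:34121552-34121851. H2-DMa has 3 sites instead of 2 if every gene that holds the centre is counted.

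Over all 32851 promoter windows of the RefSeq table, 0.904% held the strict palindrome on either strand. The share was 11.2% of the 680 windows that overlapped a site, against 0.687% of the 32171 that did not.

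The beta chain of the editor is encoded by a pair of adjoining genes, H2-DMb2 (34143229 to 34151553) and H2-DMb1 (34153191 to 34160229), both on the plus strand. H2-DMb2 had CTD-ind sites at chr17:34143084-34143383 and chr17:34144919-34145218. The first was centred 5 bp inside the lower end of the gene, and the second was centred at -180 bases from the listed start at 34145249, reaching from -330 to -31. H2-DMb1 had no site in it, and the nearest centre lay 8.12 kb before its start, in H2-DMb2. Of the 2 sites of H2-DMb2, then, 1 stood by its listed start. The other stood at the lower end of the span, its 5' end on the plus strand, at -2.02 kb from the listed start. No site stood by the start of the H2-DMb1 copy.

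The 250 bases upstream of both starts are shown because the copies are alike in sequence and differ in whether a site covers them (GRCm38.p6, plus strand, chr17:34144999-34145248 for H2-DMb2 and chr17:34152941-34153190 for H2-DMb1). Capitals mark CCCNNGGG on either strand and the Y box core, CCAAT, which reads ATTGG on the strand printed.
H2-DMb2: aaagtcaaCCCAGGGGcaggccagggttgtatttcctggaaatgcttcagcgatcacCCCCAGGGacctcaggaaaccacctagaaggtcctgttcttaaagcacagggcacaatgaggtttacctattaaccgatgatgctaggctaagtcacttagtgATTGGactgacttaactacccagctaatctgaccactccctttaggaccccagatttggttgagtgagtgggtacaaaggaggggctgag
H2-DMb1: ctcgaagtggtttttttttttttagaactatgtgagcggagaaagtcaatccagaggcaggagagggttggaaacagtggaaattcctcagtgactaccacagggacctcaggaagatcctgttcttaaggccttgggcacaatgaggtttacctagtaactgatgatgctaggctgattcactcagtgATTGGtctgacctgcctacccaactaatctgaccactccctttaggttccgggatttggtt
H2-DMb2 had the EBF core at -242 and at -193, and both matches lay inside the site, the second 10 bp from its centre. H2-DMb1 had 0 matches. In a global alignment 174 of 209 aligned bases were identical (83.3%). The H2-DMb2 match CCCAGGGG stood opposite TCCAGAGG in H2-DMb1, with 6 of 8 bases identical, and the match CCCCAGGG stood opposite CCACAGGG, with 7 of 8 identical. Neither promoter held the strict form. The core CCCNNGGG occurred in 13.7% of all promoter windows, in 46.3% of those with a site and in 13.0% of those without. How the authors treated reads that map to more than 1 place is not stated in the labels or the file, and mapping over these copies was not tested.

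The sites at the H2-DM genes formed part of a cluster, a run of 3 or more sites whose facing edges lie under 0.0125 Mb apart. It held 6 sites over 28.2 kb (chromosome 17, 34117053 to 34145218), from the body of Brd2 to the start of H2-DMb2. A YmA-ind site inside Brd2 at chr17:34117053-34117352 opened it, and the other 5 were CTD-ind. Of the 327 clusters in the list, 12 held 6 or more sites, and 2 of these 12, this cluster among them, held 5 or more CTD-ind sites. The cluster hung together narrowly: the gap between the site at the listed H2-DMa start and the site nearer the upper end of H2-DMa was 12265 bp. Measured between centres the same limit split it into 3 and 3 sites, and with gaps under 25 kb it took in the site at H2-Oa and held 7.

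**Figure D1:**
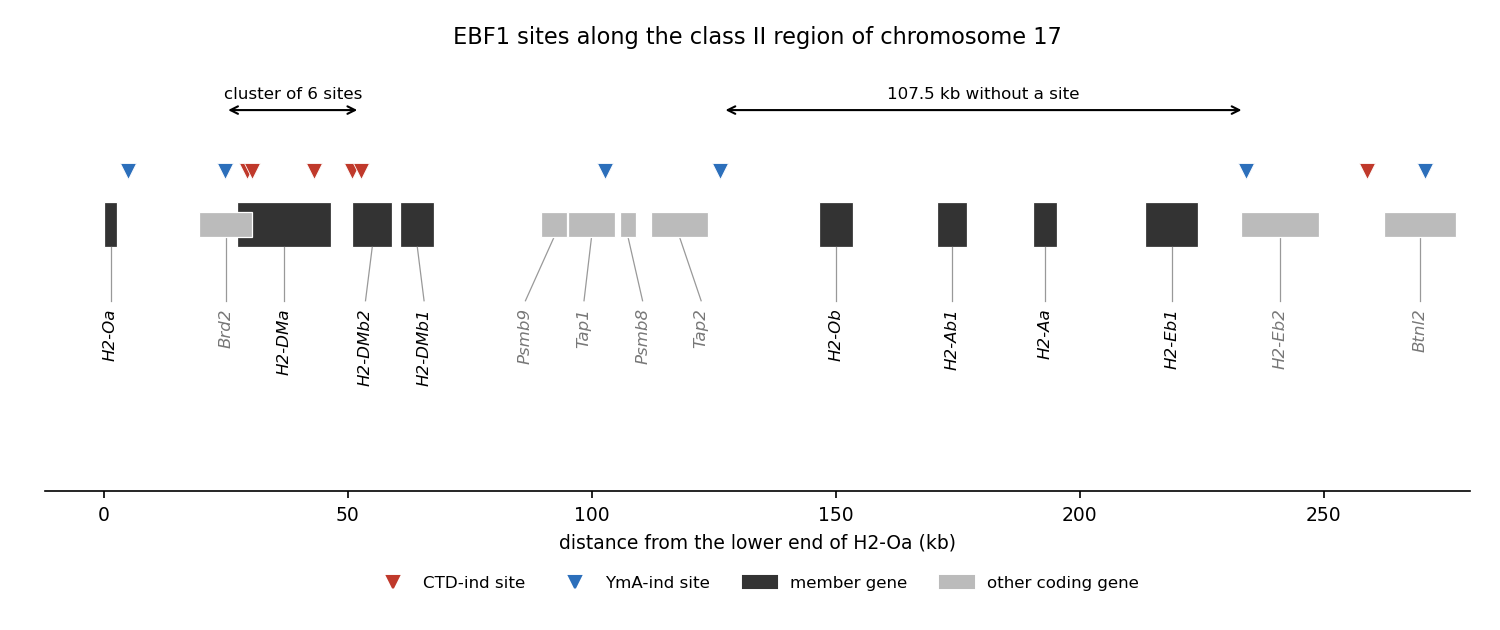
Map of the class II region of chromosome 17 by distance from the lower end of H2-Oa (kb), with coding genes as bars (the 8 class II pathway genes of this chromosome dark and tall, other genes grey and thin) and EBF1 sites as triangles coloured by class. The 6 sites of the cluster stand over Brd2, H2-DMa and H2-DMb2, and no site stands over H2-Ob, H2-Ab1, H2-Aa or H2-Eb1.

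H2-O, the inhibitor of H2-DM, is encoded by genes on either side of the editor genes. H2-Oa (34092379 to 34095234, plus strand) had a YmA-ind site at chr17:34097288-34097587, centred 2.20 kb beyond its upper end and 5.06 kb past its listed start. H2-Ob (34238905 to 34245908, plus strand) had no site. The centre nearest to it was 20.1 kb before its start, in a YmA-ind site at chr17:34218659-34218958 that lay nearer to Tap2 and was assigned to that peptide transporter gene. At H2-O, then, the alpha chain gene had a site nearby, of another class than the sites at H2-DM, and the beta chain gene had none.

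The classical chains lay in a stretch without sites. From 34218959 to 34326416 on chromosome 17, 107.5 kb held no site and contained 4 coding genes whole: H2-Ob, H2-Ab1, H2-Aa and H2-Eb1. Longer stretches were common in the list: 61.7% of the 7474 gaps between neighbouring sites were shorter (67.5% of the 406 gaps on chromosome 17), and 19.1% of all gaps held 4 or more coding genes whole. H2-Aa, the alpha chain of the I-A molecule (34282744 to 34287823), was 38.7 kb from the nearest centre. H2-Ab1, its beta chain (34263227 to 34269418), was 44.4 kb away from one. H2-Eb1, the beta chain of I-E (34305867 to 34316674), was 9.89 kb from a YmA-ind site at chr17:34326417-34326716, which lay inside the neighbouring beta chain gene H2-Eb2, 0.892 kb past its listed start. The stretch from H2-Oa to H2-Eb1, 224.3 kb long, held 9 sites in all (5 CTD-ind, 4 YmA-ind and 0 YmA-dep), or 40.1 per Mb, against 4.44 per Mb on chromosome 17 and 2.92 per Mb over all chromosomes. The stretch is dense in genes, with 13 coding genes, and per coding gene it held 0.692 sites, against 0.389 on chromosome 17.

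The promoters of H2-Oa, H2-Ob, H2-Aa and H2-Eb1, which no site covered, carried letters of the class II boxes, and no EBF core was found in them. The promoter of H2-Ab1 was not searched. A stretch of 60 bases from each is shown because no site covered these promoters and all 4 carry the Y box letters, with the X1 letters in 3 of them (GRCm38.p6: chr17:34092291-34092350, plus, for H2-Oa, chr17:34238803-34238862, plus, for H2-Ob, chr17:34287857-34287916, minus, for H2-Aa and chr17:34305763-34305822, plus, for H2-Eb1). Capitals mark AGCAAC, used here for the core of the X1 box, and the Y box core as ATTGG.
H2-Oa: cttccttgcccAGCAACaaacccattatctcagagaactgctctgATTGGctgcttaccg
H2-Ob: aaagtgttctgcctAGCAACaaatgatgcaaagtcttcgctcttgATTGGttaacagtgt
H2-Aa: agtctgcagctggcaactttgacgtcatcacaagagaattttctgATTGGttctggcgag
H2-Eb1: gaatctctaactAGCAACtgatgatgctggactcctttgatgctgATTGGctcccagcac
ATTGG stood at -43 in H2-Oa, -57 in H2-Ob, -48 in H2-Aa and -59 in H2-Eb1, and also at -61 in H2-DMb1 and -90 in H2-DMb2. AGCAAC stood at -77 in H2-Oa, -88 in H2-Ob and -92 in H2-Eb1. An exact match to AGCAAC was not found in the windows of H2-Aa, H2-DMb1, H2-DMb2 or H2-DMa. The printed sequences hold the similar letters ggcaac in H2-Aa and agtaac in H2-DMb1. Lack of an exact match thus does not show lack of an X1 box. Of all promoter windows 37.4% held CCAAT and 14.8% held AGCAAC, on either strand. Among windows with a site the shares were 36.6% and 11.3%, against 37.4% and 14.9% among windows without. The octamer ATTTGCAT, in 1.74% of all windows, was in none of the windows of these genes, and CCCNNGGG was in none of the windows of H2-Oa, H2-Ob, H2-Aa and H2-Eb1.

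The RefSeq promoter table matched 7 of the 10 genes, with 8 windows, since H2-DMa has 2 listed starts. H2-Ab1, Cd74 and Ciita were not matched. Sites overlapped 2 of the 8 windows, at H2-DMa (166 bases) and H2-DMb2 (220 bases), where 2.07% of all windows overlapped a site. The genes were chosen with their sites known, so this count describes them.

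**Figure D2:**
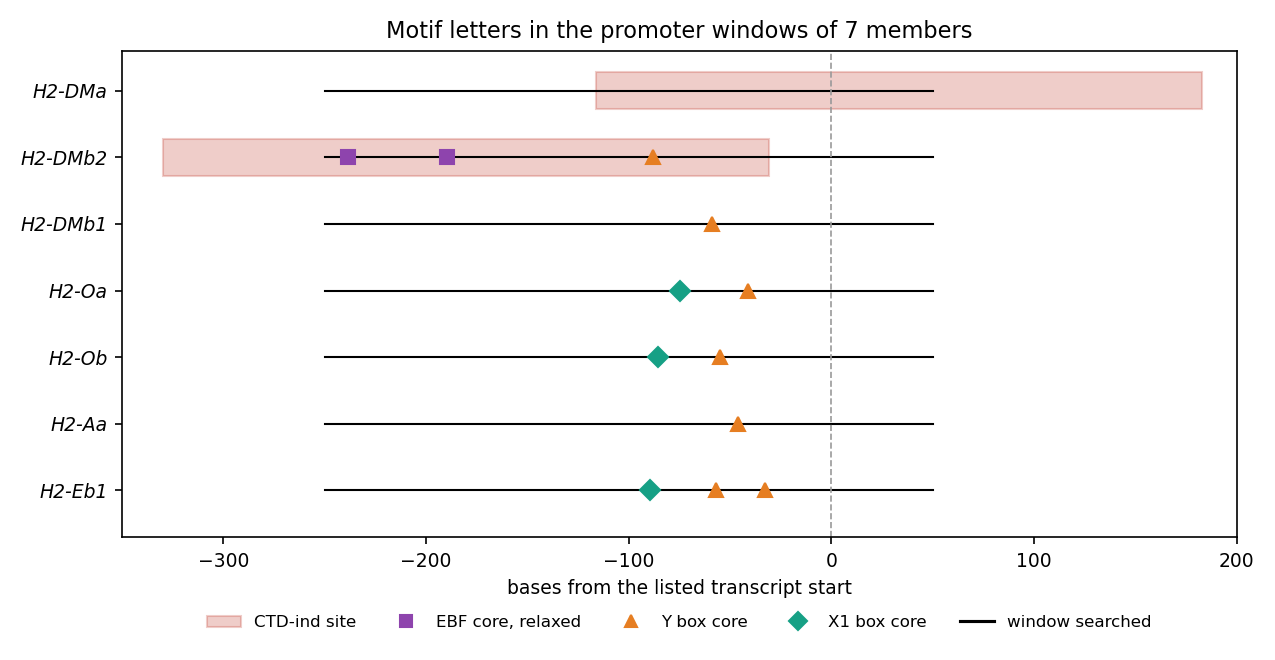
Promoter windows of the 7 genes in the RefSeq table, by bases from the listed start (for H2-DMa, the start at 34122832). Lines are the bases searched, shaded boxes the CTD-ind sites and symbols the motif letters found on either strand. The EBF core was found in H2-DMb2 alone among the windows drawn, inside its site, while the Y box core lies between -90 and -35 in all windows drawn except that of H2-DMa.

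Cd74 and Ciita lie outside the class II region, and each had 1 CTD-ind site. Cd74, the invariant chain gene on chromosome 18 (60803849 to 60812652), had a site at 60799119 to 60799418, centred 4.58 kb beyond its lower end. The next gene on that side, Rps14, encodes a ribosomal protein and ended at -25.3 kb from the lower end of Cd74, so the site fell between them on the Cd74 side. The other site within 100 kb of Cd74 was YmA-dep, at -95.3 kb inside Ndst1. Ciita, the transactivator gene on chromosome 16 (10480014 to 10531064), had a site at 10522860 to 10523159 inside the gene, 43.0 kb from its lower and 8.05 kb from its upper end. It was the only site inside Ciita or within 100 kb of it. The nearest end of a coding gene was that of Dexi, 7.20 kb away, a gene whose span overlaps the upper end of Ciita. Ciita is known to use several promoters in different cell types, and where the site lies relative to them was not analysed here.

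**Figure D3:**
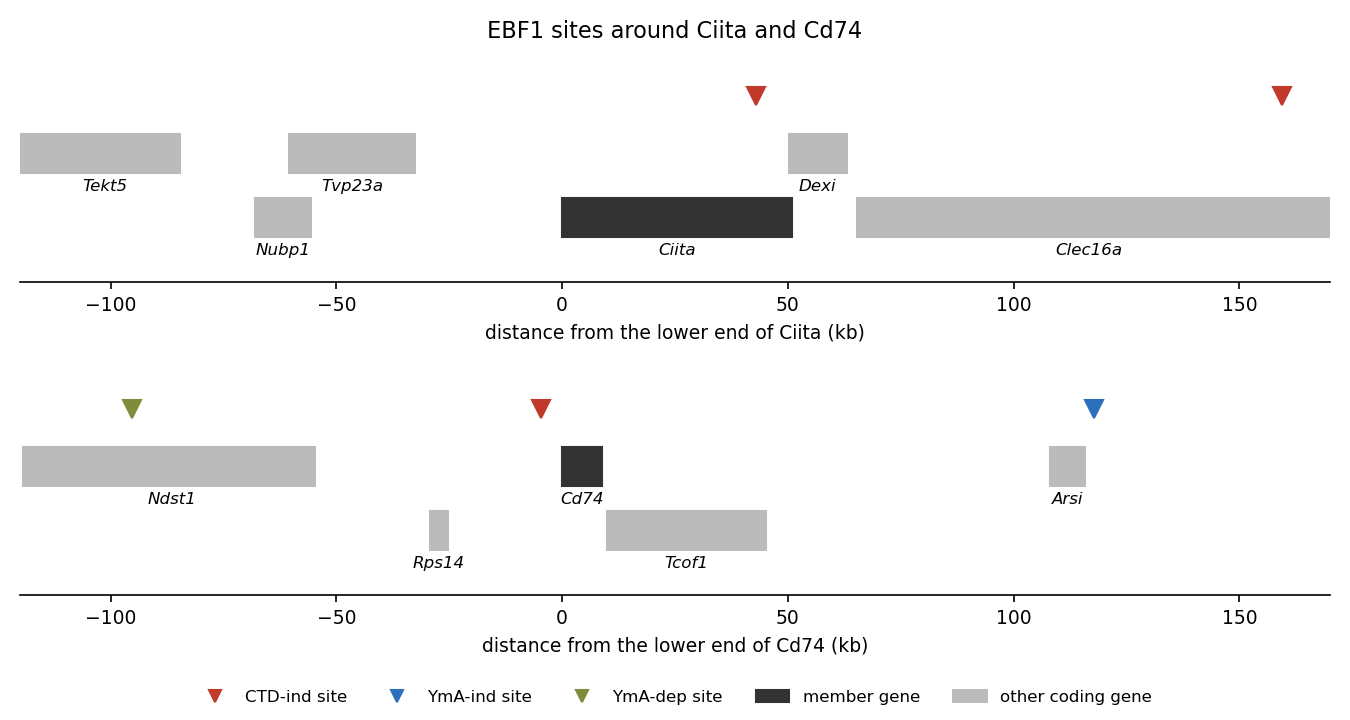
Surroundings of Ciita (upper panel) and Cd74 (lower panel) by distance from the lower end of each gene (kb), with coding genes as bars on 2 levels and EBF1 sites as triangles coloured by class. A CTD-ind site stands at 43.0 kb within Ciita and at -4.58 kb before Cd74.

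By distance alone, the 10 genes were all nearer to a site than the median coding gene. The median distance from a gene to its nearest site centre was 6.35 kb for the 10 genes, against 82.8 kb for all coding genes. Sites lay inside 3 of the 10 (13.1% of all coding genes) and inside or within 10 kb of 7 of the 10 (22.3% of all), whichever gene the site was assigned to. Among the 5 genes with no assigned site, H2-DMb1 (8.12 kb) and H2-Eb1 (9.89 kb) fell within 10 kb of a site of a neighbouring gene. H2-Ab1 was the farthest of the 10 at 44.4 kb, and 39.3% of all coding genes had a site as near as that. These distances are not independent, since 8 of the 10 genes share 1 region and its sites. The genes were also chosen with the positions of their sites known, so the distances describe them and support nothing by themselves.

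**Figure D4:**
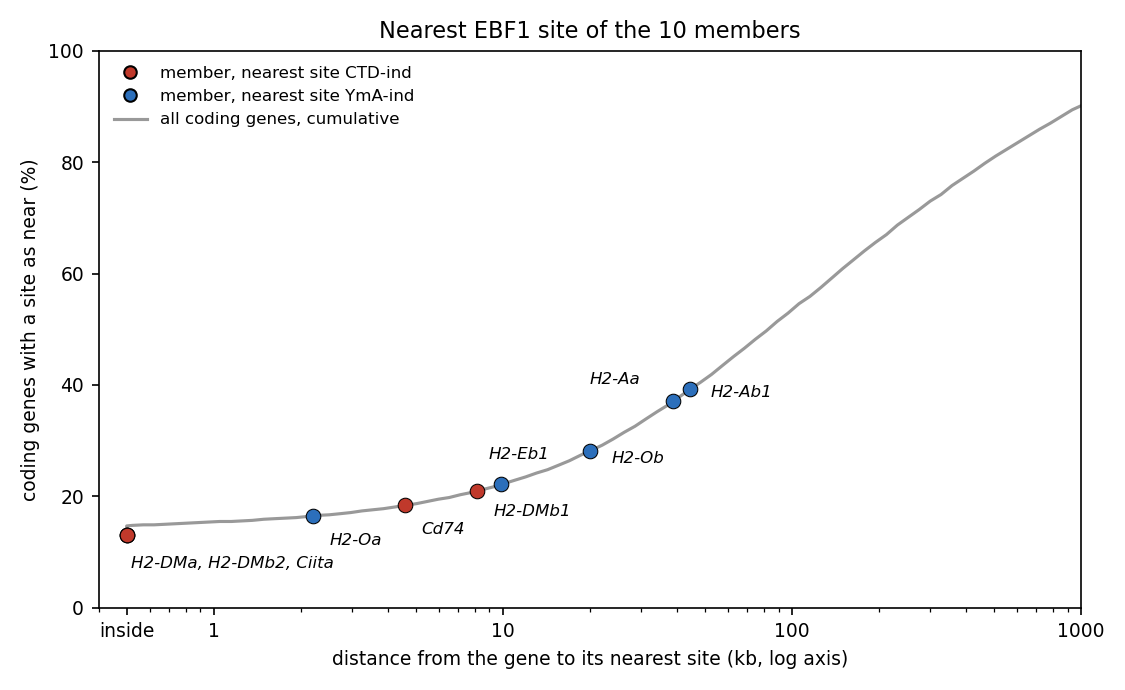
Distance from each of the 10 genes to its nearest EBF1 site centre (kb, log axis, with genes that hold a site placed at "inside") against the share of coding genes with a site at least as near, coloured by the class of that site. The grey line is the cumulative share over all coding genes. All 10 points lie at 39.3% or lower.

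The distance from the 7 assigned sites to the closest coding gene end had a median of 2.20 kb, against 9.88 kb for all 7082 assigned sites and 5.56 kb for all CTD-ind sites. Of the 7, 2 lay within 1 kb of such an end (28.6%). They were the site at the listed H2-DMa start, 52 bp from the upper end of Brd2, and the site 5 bp inside H2-DMb2. The share was 16.5% of all assigned sites and 28.9% of all CTD-ind sites. With the ends of all annotated genes, coding or not, the median was 2.13 kb for the 7 sites, against 5.17 kb for all assigned sites and 2.67 kb for all CTD-ind sites. The share within 1 kb was then 28.6% of the 7, against 21.9% of all assigned sites and 34.9% of all CTD-ind sites. Sites inside a coding gene made up 5 of the 7 (71.4%), against 59.6% of all assigned sites. No site of the 10 genes came close to the 100 kb limit: those outside a gene lay at 2.20 kb (H2-Oa) and 4.58 kb (Cd74).

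Among 42 other coding genes of antigen presentation, 16 had an assigned site, where 19.6% of all coding genes did. These genes were listed with earlier results of these data known, so the counts below describe them and support nothing by themselves. Of the 8 genes of the class II transcription machinery 5 had a site (62.5%), where 19.6% of all coding genes did. Rfxank and Rfxap encode subunits of the RFX complex that binds the X box, and each had a YmA-ind site. The site at Rfxank was centred 0.120 kb past the listed start and overlapped the promoter window by 79 bases, which held no CCCNNGGG, and that at Rfxap lay 7.67 kb outside the gene. Nfyc, a subunit of the Y box factor NF-Y, had a YmA-ind site 1.94 kb outside, and Creb1, whose product joins the complex at the X2 box, a CTD-ind site 2.69 kb outside. Irf1, a factor of the interferon response of Ciita, had a CTD-ind site at -0.934 kb from a listed start and a YmA-ind site 18.5 kb outside as well. Rfx5, Nfya and Nfyb had none.

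Of 8 genes that cut, load or turn over class II molecules 3 had a site (37.5%), where 19.6% of all coding genes did. Ifi30, a thiol reductase that unfolds antigens, held a CTD-ind site 0.673 kb past its listed start, within the gene. Marchf1, a ubiquitin ligase that removes class II from the surface, held a CTD-ind site too. Lgmn, an asparaginyl endopeptidase, had YmA-ind sites at chr12:102403966-102404265 and chr12:102404477-102404776 inside the gene and a YmA-dep site 10.8 kb outside. The cathepsin genes Ctss, Ctsl, Ctsb and Ctsd had none, and neither did Marchf8.

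Of 20 genes of the class I pathway 5 had a site (25%), where 19.6% of all coding genes did. Of these 5 sites 0 were CTD-ind, against 34.0% of all sites. A CTD-ind site was thus assigned to 0 of the 20 genes, where 9.32% of all coding genes had one. Counting sites inside or within 10 kb of a gene, 8 of the 20 had a site (40%), where 22.3% of all coding genes did. These 8 genes had 6 sites between them, since neighbours share sites, and 1 of the 6 was CTD-ind. Tap1 and Tap2, the peptide transporter genes within the class II region, had a YmA-ind site each, inside Tap1 and 2.49 kb outside Tap2. Nlrc5, the class I counterpart of Ciita, had a YmA-ind site 2.00 kb outside the gene. H2-Q7 had one centred 0.0610 kb past its listed start, in a family of near-identical genes where the placing of reads is uncertain. Cd1d1, which presents lipids, had a YmA-dep site 17.3 kb outside. The classical class I genes H2-K1 and H2-D1 and the light chain gene B2m had none. Of 5 costimulation genes 2 had a site (40%), where 19.6% of all coding genes did. Cd40 had a CTD-ind site 0.340 kb outside and Icosl a YmA-ind site 13.4 kb outside. Cd80, Cd86 and Cd274 had none. H2-Eb2 had the YmA-ind site named above, and H2-Ea, listed as a transcribed pseudogene, received none because sites were assigned to coding genes.

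**Figure D5:**
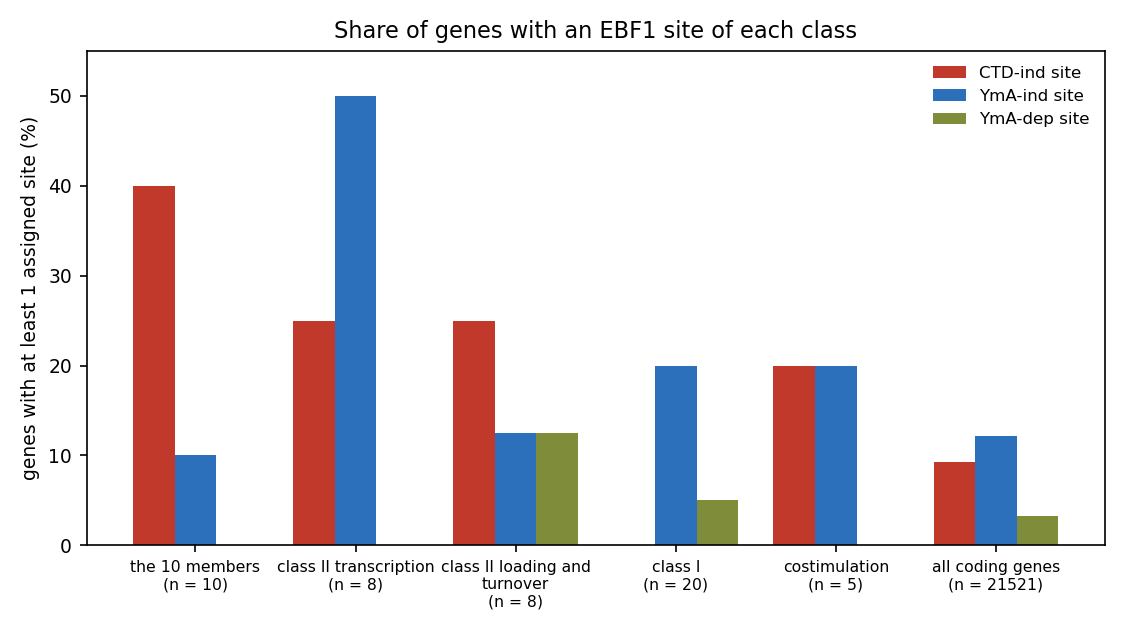
Percent of genes with at least 1 assigned site of each class, for the 10 class II pathway genes, 4 lists of other antigen presentation genes and all coding genes (n under each name). The bars are shares of genes without error bars. CTD-ind sites stand at 4 of the 10 class II pathway genes and at 0 of the 20 class I genes, as sites were assigned (at 5 and at 1 when every site within 10 kb counts).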

How the data were processed

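Per the labels' protocols, chromatin of formaldehyde-fixed pro-B cells was sheared by sonication and precipitated with an EBF1 antibody. The build was GRCm38 (mm10) and the tools were Bowtie2, SAMtools and deepTools, per the submitters' processing notes. The deposited file holds site positions in bp and a text class per site. Peak caller, threshold, pooling, the step that fixed the width and the origin of the classes are not stated in the labels or the file header.

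Sites (7494, 1-based positions) were assigned by their centre to 21521 RefSeq coding genes of the same build: the shortest gene holding the centre, otherwise the nearest within 100 kb. Genes of extra scaffolds (345) were left out. Strands and sequences came from RefSeq promoter windows (GRCm38.p6, 250 bases before to 50 after a listed start). Motifs were searched on both strands, and the H2-DM beta promoters aligned globally with Biopython 1.88, in Python 3.11.15 with pandas 2.3.3. Assignment and motif search were tested on simulated sites and motifs. With 1 library no test was run. The 10 genes, the gene lists and the motifs were chosen with earlier results of these data known. Named genes are the 10, the listed antigen presentation genes with a site, and neighbours of a site. List genes without a site and genes next to the map positions were named after their values were seen. A gene of the planned lists and a motif match are not reported here. Protein identity between chains, planned, was not run. Gaps of a cluster were measured between facing edges. Alternatives were other distance limits, flanks, gaps and motif forms.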

Additional observations from a re-analysis of the deposited data

How the results depend on the processing

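Over 21 reported values, 62 of 80 alternative values stayed within 1.5 times the count or within the interval of the value, and 18 moved. For the CTD-ind share the interval was the exact 95% interval over 7 sites, 42.1 to 99.6%, which treats neighbouring sites as independent. It is so wide that a fall to 44.4% counts as having stayed. Within 20 kb, with no distance limit, within 10 kb of the gene and with every gene that holds the centre, the sites at the 10 genes and the number of genes with a site stayed in that range. Counting every site inside or within 100 kb gave 18 sites and all 10 genes, and the CTD-ind share fell to 44.4%, against 85.7% as assigned. Neighbouring genes on chromosome 17 then share sites. Over all coding genes, 52.9% had a site inside or within 97.1 kb. Sites in the cluster at the H2-DM genes fell to 3 with gaps under 5 kb and to 3 with gaps between centres, an alternative added after seeing the data, as was counting every gene that holds the centre. Class I genes with a site became 8 of 20 inside or within 10 kb of the gene, where 22.3% of all coding genes had a site. Genes among the 10 with the EBF letters in a promoter window were 0 with the strict palindrome and 1 with CCCNNGGG. No paired analysis was possible because each group holds 1 library. Read depth and site strength are unknown.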
